A study of Mus musculus with 6 samples.

Results

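A set of 10 growth genes was followed here in cultured mouse cardiomyocytes, the contracting muscle cells of the heart. They were the insulin-like growth factor genes *Igf1* and *Igf2*, the receptor genes *Igf1r* and *Igf2r*, and the imprinted growth genes *H19*, *Cdkn1c*, *Plagl1*, *Peg3*, *Dlk1* and *Grb10*, chosen by symbol, and all 10 were found among the 20066 genes of the deposited table. The libraries came from primary cardiomyocytes of newborn C57BL/6 mice (P0-1), plated on fibronectin in a medium with fetal calf serum and then kept for 96 h with a form of α-ketoglutarate that enters cells (αKG), which is an intermediate of the Krebs cycle and also a cosubstrate of many histone and DNA demethylases, or with the solvent DMSO alone. Each group had 3 libraries. The αKG concentration was 100 µM by the labels, a figure that differs from the one in the study's methods. No genotype differed between the groups, and the labels do not say whether the 3 libraries of a group came from separate cultures. In the study's methods a neonatal sample stands for a single isolation from the pooled hearts of several pups, but this is written among the staining methods and does not name these libraries. If the libraries of a group share an isolation, the p-values measure only the spread between these samples. The comparison of αKG with DMSO addresses which genes respond to a raised level of αKG in neonatal cardiomyocytes.

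IGF1 and IGF2 are secreted peptides that activate IGF1R, a receptor tyrosine kinase whose signal runs through insulin receptor substrates, PI3K and AKT to growth and division. IGF2R, the cation-independent mannose 6-phosphate receptor, has no kinase and carries IGF2 to lysosomes. Apart from *Igf1* and *Igf1r*, the genes are imprinted in the mouse, that is, transcribed mainly from the copy of a single parent. As a rule, paternally expressed members (*Igf2*, *Peg3*, *Plagl1*, *Dlk1*) favour growth, and maternally expressed members (*H19*, *Cdkn1c*, *Igf2r*, *Grb10*) restrain it. In the heart, IGF2 is best known from the embryo, where it drives division of cardiomyocytes, and IGF1 from growth after birth. The libraries carry no information on the parental allele, so all values are sums over both copies.

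Values are normalized read counts rounded to whole numbers, and the depth was worked out from the steps between low values. Estimated reads in genes lay between 4219262 and 4428655 in the DMSO libraries and between 3725428 and 4386742 in the αKG libraries. αKG replicate 3 stood apart: across genes its log2 values correlated at 0.977 to 0.98 with the DMSO libraries but at 0.962 and 0.963 with αKG replicates 1 and 2. Over 13048 genes together, DMSO replicates 2 and 3 were within counting noise of each other (a chi-square per gene of 1.02, with p = 0.104), but 16 genes differed beyond it. This cannot tell whether the 2 are separate cultures. They were kept as separate samples, and results are also given with their mean as 1 sample. The chi-square per gene was 1.42 for DMSO replicates 1 and 2, 1.92 for DMSO replicates 1 and 3 and 1.52 for αKG replicates 1 and 2. All 12 cardiomyocyte markers were in the table, with summed values of 78764 to 81405 in DMSO and 83368 to 114968 in αKG. Most of this sum and of its difference is *Ttn*, the giant sarcomere protein titin (51569, 54216 and 53157 in DMSO, 80306, 84136 and 55569 in αKG), and the other 11 summed to 27189 to 27741 in DMSO and 27799 to 31639 in αKG. The median log2 fold change over the 12 was 0.07. Summed fibroblast markers (12 of 12) were 3801 to 3985 in DMSO, 8444 and 8197 in αKG replicates 1 and 2 and 3839 in αKG replicate 3, and the 10 epicardial markers gave 499 to 525, 1276, 1204 and 466 in the same order. Summed endothelial markers (12 of 12) were 2291 to 2413 in DMSO and 1581 to 1725 in αKG, with 8 called lower (called meaning an adjusted p under 0.05 in the limma test), and smooth muscle and pericyte markers lay at 4306 to 4415 and 4613 to 5027, with 2 of 10 called higher. Over all genes 0.952% were called lower and 2.83% higher. Of the macrophage markers 5 of 12 were listed, at 23 to 41 in sum, and *Adgre1*, *Ptprc* and the C1q genes were not. Of the skeletal muscle markers 6 of 10 were listed, with 1 called higher, at 770 to 962 in DMSO and 1133 to 1213 in αKG, and *Myod1* and *Myog* were not listed. Most of this sum is *Ckm* (645 to 810 in DMSO, 606 to 802 in αKG) and *Acta1* (68, 78 and 84, then 429, 481 and 239), which is the gene called. The study uses *Acta1* as a marker of immature cardiomyocytes, so the sum is not specific to skeletal muscle. No cardiomyocyte, fibroblast, epicardial or macrophage marker was called by limma, with 5, 7, 2 and 0 of them at an unadjusted p under 0.05. Of all 20066 genes 3.78% were called and 5648 had an unadjusted p under 0.05. These sums move with several of the values below, and their part in any of them was not tested.

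Of the 10 genes, 3 passed an adjusted p of 0.05 (limma with Benjamini-Hochberg adjustment over all 20066 genes): *Igf1* and *Peg3* rose, and *Plagl1* fell. Across all genes 3.78% passed, 2.83% higher and 0.952% lower. Without adjustment, 6 of the 10 had a p under 0.05, as did 5648 of all genes. The groups did not overlap for 4 of the 10, 3 higher and 1 lower, beside 28.3% of all genes (13.7% higher and 14.6% lower). The median log2 fold change of the 10 was 0.13, and that of all genes was 0.04. The count depends on single libraries, and so does the count over all genes. Without αKG replicate 3, 6 of the 10 passed, when 37.2% of all genes did. Without αKG replicate 1 or 2, 0 of the 10 passed, and 0 of all genes did in either fit. Without DMSO replicate 2 or 3, 0 of the 10 passed, beside 3 and 4 of all genes. Without DMSO replicate 1, 1 of the 10 passed, beside 152 of all genes. With DMSO replicates 2 and 3 averaged, again 0 of the 10 passed, with 4 of the 10 below 0.05 before adjustment, beside 19 of all genes that passed. Without a variance trend 0 of the 10 passed (3 before adjustment), beside 27 of all genes. With a pseudocount of 0.1 only *Igf1* did, beside 346 of all genes. Results below that leave out αKG replicate 3 stand beside that share of 37.2% of all genes. Those that leave out another library stand beside fits in which only 0 to 152 of all genes passed.

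**Figure D1:**
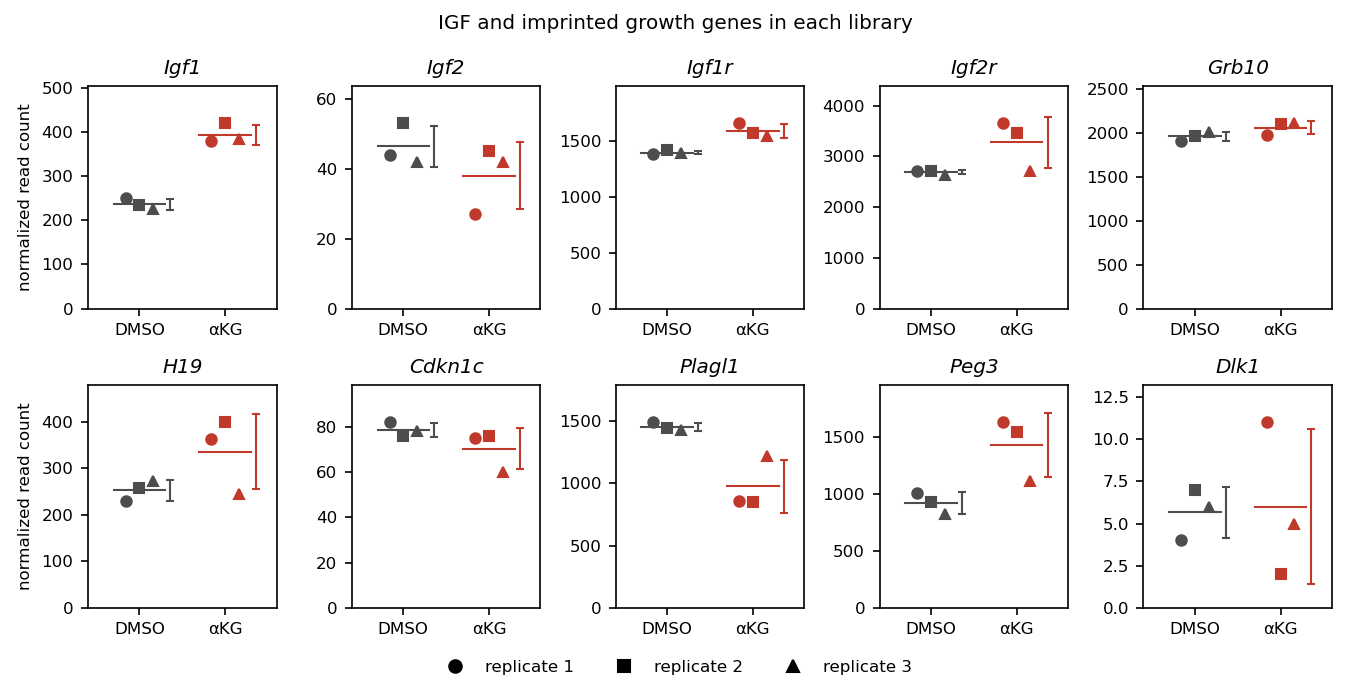
Normalized read count (linear axes from 0, a scale per gene) of the 10 genes in each library, with DMSO in grey and αKG in red. Symbols mark replicate numbers, horizontal lines the mean and bars the SD of 3 libraries. *Igf1* separates the groups with all 3 αKG libraries close together, while *H19*, *Igf2r*, *Peg3* and *Plagl1* have αKG replicate 3 (triangle) nearest to the DMSO libraries.

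*Igf1* (ENSMUSG00000020053, chr10:87858265-87937042, plus strand, GRCm38) stood at 250, 234 and 226 normalized read counts in the DMSO libraries and at 379, 420 and 383 in the αKG libraries. All αKG libraries were above all DMSO libraries, and αKG replicate 3 lay between the other two. The mean rose from 237 ± 12.2 to 394 ± 22.6 (SD, n = 3 per group), or 1.66-fold. On the log2(value + 1) scale the change was 0.73 ± 0.09 (SE, 95% CI 0.53 to 0.93), with a limma adjusted p of 0.0071. Relative to the DMSO mean, αKG replicates 1 to 3 were at 0.68, 0.83 and 0.69 on that scale. In αKG replicate 3 *Igf1* was thus as high as in the other αKG libraries, while the summed fibroblast (3839) and epicardial (466) markers of that library were within or below their DMSO ranges. In the same library the endothelial sum (1584) was below its DMSO range, and the smooth muscle and pericyte (4707) and skeletal muscle (1133) sums were above theirs. The skeletal muscle sum held *Acta1* at 239, against 68 to 84 in DMSO. The part of these marker sums in the *Igf1* value was not tested. In bulk RNA, a change in the number of cells of a type and a change in RNA per cell cannot be told apart. The log2 change stayed between 0.69 and 0.77 under every alternative, but the adjusted p was 0.203 and 0.224 when αKG replicates 1 and 2 were left out, 0.132 and 0.105 for DMSO replicates 2 and 3, 0.0816 with DMSO replicates 2 and 3 averaged and 0.102 without a variance trend. Without αKG replicate 3 it was 0.00125 at a log2 change of 0.75. In the fits without αKG replicate 1 or 2, 0 of all 20066 genes passed, and 3 and 4 did without DMSO replicates 2 and 3.

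*Igf2* (ENSMUSG00000048583, chr7:142650766-142666816, minus strand), the fetal growth factor, had low values of 44, 53 and 42 in DMSO and 27, 45 and 42 in αKG. Only αKG replicate 1 was below the DMSO range, and the groups overlapped. The log2 fold change was −0.30 ± 0.24 (95% CI −0.85 to 0.24, limma adjusted p = 0.429), and the interval holds both a fall and a small rise. These values rest on 25 to 57 estimated reads per library. They are also bounded by the annotation. In GENCODE M21 a read-through gene on the same strand, *Gm49394* (ENSMUSG00000115302, chr7:142650769-142669942), covers 546 of the 678 coding bases of *Igf2* (80.5%) and 3596 of its 5723 exon bases (62.8%). The study left out reads that overlap several genes, and *Gm49394* itself is not listed in the table. If the counting annotation held it, only reads in the 2127 exon bases not shared would have been counted for *Igf2*. The table lists 446 genes with a higher Ensembl number than *Gm49394*, but which annotation was used is not given in the sources used here. The level of *Igf2* may therefore be too low, and its rank among the other genes was not tested.

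*H19* (ENSMUSG00000000031, chr7:142575529-142578143, minus strand), the maternally expressed noncoding RNA that lies 72.6 kb from *Igf2* and shares its enhancers, was at 229, 257 and 273 in DMSO and at 363, 399 and 245 in αKG. Replicates 1 and 2 of the αKG group were above every DMSO library, and replicate 3 lay inside the DMSO range. The log2 fold change of 0.38 ± 0.17 (95% CI 0.01 to 0.76) had a limma adjusted p of 0.173, and without αKG replicate 3 it was 0.59 with an adjusted p of 0.00465. In that fit 37.2% of all genes passed. Other genes cover 9.1% of the exon bases of *H19*. The part on the same strand, 3.4%, is the miRNA gene *Mir675*, which *H19* hosts, and *Gm27483* and *Gm27786* lie on the other strand. *Igf2os*, an antisense RNA of *Igf2*, was the only listed neighbour in the table, at 16, 20 and 23 in DMSO and 14, 25 and 32 in αKG (a log2 difference of 0.20 ± 0.34, adjusted p = 0.73). Its exons are covered to 23.2% by genes on the other strand, and whether the counting used strand is not stated.

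The receptor genes had higher means in αKG without passing the test. *Igf1r* (ENSMUSG00000005533, chr7:67952827-68233668, plus strand) was at 1383, 1417 and 1396 in DMSO and at 1662, 1569 and 1549 in αKG. Its groups did not overlap and were tight, and the log2 fold change was 0.19 ± 0.06 (95% CI 0.06 to 0.31, limma adjusted p = 0.0813), or 0.21 with an adjusted p of 0.00865 without αKG replicate 3. *Igf2r* (ENSMUSG00000023830, chr17:12682406-12769664, minus strand) was at 2714, 2702 and 2638 in DMSO and at 3654, 3453 and 2713 in αKG. Here αKG replicate 3 lay within the DMSO range, and the log2 fold change of 0.27 ± 0.10 (95% CI 0.06 to 0.49) had an adjusted p of 0.111, against 0.40 with an adjusted p of 0.000908 without that library. *Airn*, the paternally expressed noncoding RNA that overlaps *Igf2r* on the other strand and silences it in cis, had a like pattern, with 131, 171 and 174 in DMSO and 335, 330 and 175 in αKG. Its log2 fold change was 0.77 ± 0.23 (adjusted p = 0.0843), and 1.07 without αKG replicate 3 (adjusted p = 0.00223). Without that library 37.2% of all genes passed, as *Igf1r*, *Igf2r* and *Airn* did. The exons of *Igf2r* share no base with those of another gene. *Mas1* (0, 2 and 0 in DMSO, 12, 6 and 1 in αKG) and *Slc22a3* (0, 2 and 1, then 0, 0 and 3) were near the lower limit of the table.

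*Grb10* (ENSMUSG00000020176, chr11:11930508-12038683, minus strand) encodes an adaptor that binds the activated insulin and IGF1 receptors and dampens their signal. It was at 1908, 1964 and 2012 in DMSO and at 1972, 2100 and 2113 in αKG, with overlapping groups. The log2 fold change was 0.07 ± 0.05 (95% CI −0.05 to 0.19, limma adjusted p = 0.407), and no alternative gave a value above 0.10 or an adjusted p below 0.322. Its neighbours *Ddc*, the aromatic amino acid decarboxylase gene 32.4 kb away, and *Cobl*, an actin nucleator gene, did not pass either. *Ddc* was at 426, 443 and 440 in DMSO and 313, 364 and 589 in αKG, with αKG replicate 3 on the other side of the DMSO range from αKG replicates 1 and 2 (log2 fold change −0.10 ± 0.19, adjusted p = 0.751). Without αKG replicate 3, when 37.2% of all genes passed, *Ddc* had a log2 fold change of −0.37 and an adjusted p of 0.0113. *Cobl* was at 252, 231 and 249 in DMSO and 245, 248 and 320 in αKG (a log2 difference of 0.14 ± 0.12, adjusted p = 0.461).

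*Cdkn1c* (ENSMUSG00000037664, chr7:143458339-143461050, minus strand) encodes p57, an inhibitor of cyclin-dependent kinases. Its values were 82, 76 and 78 in DMSO and 75, 76 and 60 in αKG, all from 64 to 85 estimated reads. The log2 fold change was −0.17 ± 0.16 (95% CI −0.52 to 0.19, limma adjusted p = 0.513), and the lowest library was αKG replicate 3. An opposite-strand gene, *Gm44732*, covers 30.7% of its exon bases. *Kcnq1ot1*, the paternally expressed noncoding RNA that silences *Cdkn1c* in cis and starts inside *Kcnq1*, was at 605, 749 and 587 in DMSO and at 2180, 2280 and 751 in αKG. Its lowest αKG value, in replicate 3, exceeded the highest DMSO value by 2 normalized read counts, and the log2 fold change of 1.27 ± 0.35 (95% CI 0.49 to 2.05) had an adjusted p of 0.0681. Without αKG replicate 3 the log2 fold change of *Kcnq1ot1* was 1.79 (adjusted p = 0.000352), in a fit where 37.2% of all genes passed.

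Of the other listed genes of that domain, 4 had no overlap between the groups with αKG lower, beside 14.6% of all genes, and none passed the test. *Kcnq1*, a potassium channel gene, was at 490, 504 and 485 in DMSO and 420, 345 and 461 in αKG (a log2 difference of −0.28 ± 0.11, limma adjusted p = 0.13). *Osbpl5*, an oxysterol-binding protein gene, was at 541, 530 and 513 and then at 351, 309 and 462 (−0.52 ± 0.13, adjusted p = 0.0584). *Nap1l4* (715, 716 and 718, then 543, 586 and 704) and *Tssc4* (158, 186 and 170, then 132, 134 and 157) had log2 fold changes of −0.24 and −0.28 and adjusted p of 0.144 and 0.171. In each of these the αKG library nearest to DMSO was replicate 3, and each passed without it, as 37.2% of all genes did, at −0.37 (adjusted p = 0.0181) for *Kcnq1*, −0.68 (0.00126) for *Osbpl5*, −0.34 (0.00349) for *Nap1l4* and −0.36 (0.0247) for *Tssc4*. *Cd81* was at 652, 657 and 684 and then at 678, 719 and 649 (log2 fold change 0.04 ± 0.07, 95% CI −0.12 to 0.19), and *Tspan32* was at 2 to 10.

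**Figure D2:**
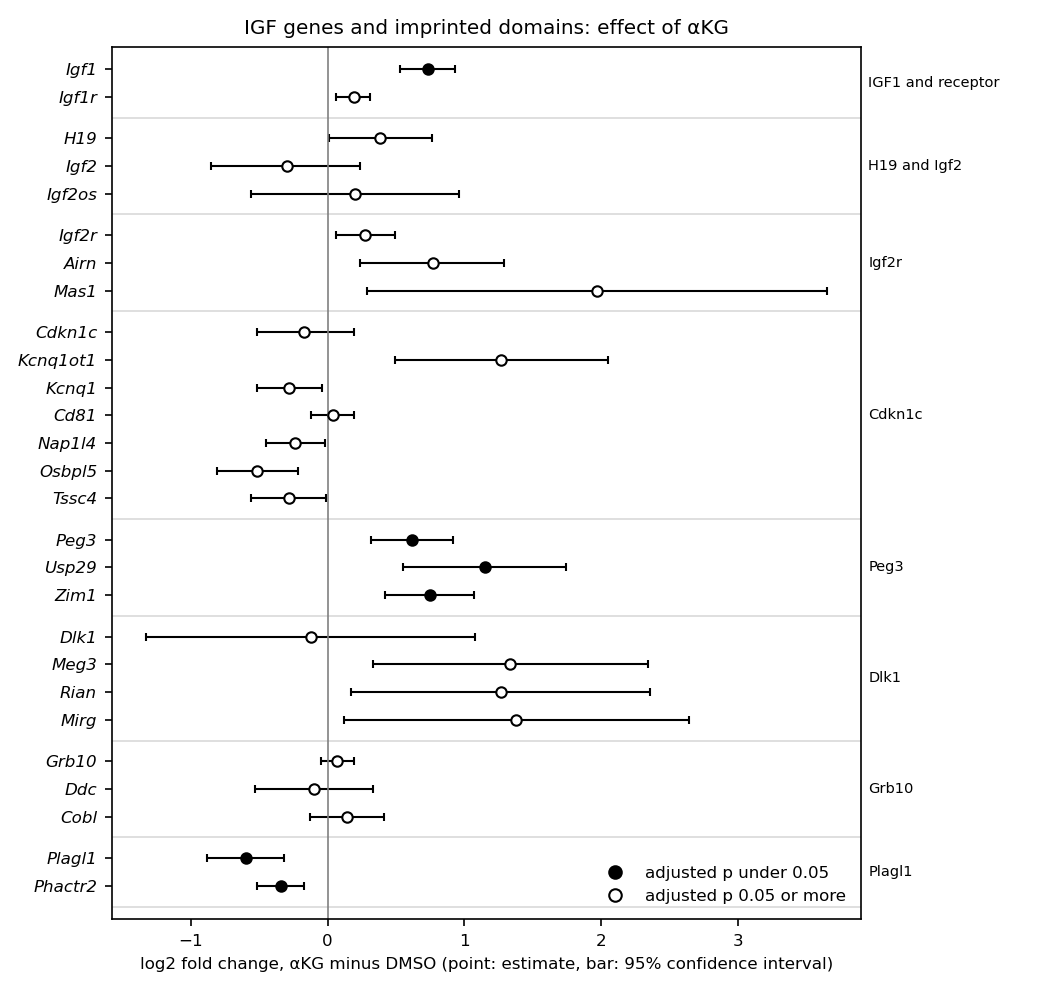
Log2 fold change (αKG minus DMSO) with 95% confidence interval for the 10 genes and the listed neighbours of their domains, grouped by domain on the vertical axis. *Begain*, *Rtl1*, *Slc22a3* and *Tspan32* are not drawn. Filled points passed an adjusted p of 0.05: *Igf1*, *Peg3*, *Usp29* and *Zim1* to the right of 0 and *Plagl1* and *Phactr2* to the left, while the noncoding RNAs *Kcnq1ot1*, *Meg3*, *Rian* and *Mirg* have estimates of 1.27 to 1.38 with wide intervals.

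*Peg3* (ENSMUSG00000002265, chr7:6703892-6730431, minus strand) encodes a zinc finger protein and is expressed from the paternal copy. It was at 1013, 930 and 824 normalized read counts in DMSO and at 1632, 1550 and 1114 in αKG. The groups did not overlap, and αKG replicate 3 was closest to the DMSO libraries. The mean rose from 922 ± 94.7 to 1432 ± 278 (SD, n = 3), or 1.55-fold, with a log2 fold change of 0.62 ± 0.14 (95% CI 0.32 to 0.92, limma adjusted p = 0.0435). The αKG replicates were at 0.83, 0.75 and 0.28 relative to the DMSO mean. In leave-one-out fits the log2 change was 0.52 to 0.79, and the adjusted p was 0.132, 0.231 and 0.257 without DMSO replicates 1, 2 and 3, 0.271 and 0.281 without αKG replicates 1 and 2, and 0.00158 without αKG replicate 3. With DMSO replicates 2 and 3 averaged it was 0.205, without a variance trend 0.195, with a pseudocount of 0.1 it was 0.0592 and with limma-voom 0.0625. In αKG replicate 3 *Peg3* (1114) was above its highest DMSO value. The marker sums of that library were within or below their DMSO ranges for fibroblasts (3839) and epicardium (466), below for endothelium (1584) and above for smooth muscle and pericytes (4707) and skeletal muscle (1133). The skeletal muscle sum held *Acta1* at 239, against 68 to 84 in DMSO. The part of these marker sums in the *Peg3* value was not tested.

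Of 6 listed neighbours of *Peg3*, 2 were in the table, and both passed the test as higher in αKG, beside 2.83% of all genes. *Usp29*, which is also paternally expressed and starts next to *Peg3* on the other strand, had low values of 20, 15 and 15 in DMSO and 39, 30 and 46 in αKG. Its log2 fold change was 1.15 ± 0.27 (95% CI 0.55 to 1.74, limma adjusted p = 0.0483), with its highest value in αKG replicate 3, the library in which *Peg3* was nearest to DMSO. *Zim1*, a maternally expressed zinc finger gene 7.44 kb from *Peg3*, was at 106, 105 and 80 in DMSO and at 162, 175 and 150 in αKG (a log2 difference of 0.75 ± 0.15, 95% CI 0.42 to 1.07, adjusted p = 0.0354). The αKG replicates of *Zim1* were at 0.75, 0.86 and 0.64 relative to the DMSO mean and thus lay close together. Leaving out DMSO replicate 1, 2 or 3 gave adjusted p of 0.123, 0.231 and 0.251 for *Usp29* and 0.0998, 0.222 and 0.225 for *Zim1*, and leaving out αKG replicate 1 or 2 gave 0.233 and 0.255 for *Usp29* and 0.231 and 0.255 for *Zim1*. Without αKG replicate 3 they were 0.0189 and 0.0076, with DMSO replicates 2 and 3 averaged 0.205 and 0.17, and of 15 alternatives *Usp29* passed in 3 and *Zim1* in 7. Other genes cover 14.8% of the exon bases of *Usp29*. *Zim2*, *Zim3*, *Zfp264* and *Apeg3* were not listed in the table.

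The start region that *Peg3* and *Usp29* share is shown because both genes rose and their RefSeq starts, at positions 6730419 and 6730583 of chromosome 7, are only 164 bases apart and point away from each other. The sequence is the 163 bases between the starts, chr7:6730420-6730582 on the plus strand (GRCm38.p6, RefSeq promoters), with the CCAAT boxes in capitals.
Peg3 and Usp29, bases between the starts: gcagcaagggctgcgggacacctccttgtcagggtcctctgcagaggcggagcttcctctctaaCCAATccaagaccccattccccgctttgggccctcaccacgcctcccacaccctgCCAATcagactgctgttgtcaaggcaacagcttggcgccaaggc
Of these bases 62.0% are G or C, against a median of 52.7% over 32851 RefSeq promoters (250 bases before to 50 after the start), and the run holds 5 CG dinucleotides. CCAAT was searched on both strands after the sequence had been seen and occurs in 37.4% of all promoters, so that its presence here is common. The letters GGGGCCCC, a motif bound by PLAGL1 that reads the same on both strands, occur in 354 of the promoters (1.08%). Among the 12 promoters of the 8 genes with an entry (*H19* and *Cdkn1c* had none), only the *Peg3* window held it, at chr7:6730613-6730620, 30 bases after the start of *Usp29*. A core motif of CTCF, the insulator protein of imprinted domains, was searched on both strands and found in 12 promoters (0.0365%) and in none of the 12. At so low a share, 12 short windows, with none for *H19* or *Cdkn1c*, cannot tell whether these domains hold CTCF sites. A match is a run of letters and not a bound site.

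*Plagl1* (ENSMUSG00000019817, chr10:13060504-13131694, plus strand) encodes that zinc finger factor, which is paternally expressed and is known to regulate other imprinted genes. It was at 1489, 1442 and 1430 in DMSO and at 855, 848 and 1223 in αKG. Every αKG library was below every DMSO library, with αKG replicate 3 between the others and the DMSO group. The mean fell from 1454 ± 31.2 to 975 ± 215 (SD, n = 3), a ratio of 0.671, with a log2-scale difference of −0.60 ± 0.12 (95% CI −0.88 to −0.32, limma adjusted p = 0.0393). The αKG replicates were at −0.77, −0.78 and −0.25 relative to the DMSO mean. Leaving out DMSO replicates 1, 2 and 3 gave adjusted p of 0.17, 0.226 and 0.241, leaving out αKG replicates 1 and 2 gave 0.264 and 0.265 at a log2 change of −0.51, and leaving out αKG replicate 3 gave 0.000208 at −0.77. With DMSO replicates 2 and 3 averaged it was 0.189, without a variance trend 0.19 and with a pseudocount of 0.1 it was 0.0557. In αKG replicate 3 *Plagl1* (1223) was below its lowest DMSO value. The summed endothelial markers were also lower in all 3 αKG libraries (1725, 1581 and 1584, against 2291 to 2413 in DMSO), with 8 of 12 called lower, beside 0.952% of all genes, whereas the fibroblast sum of αKG replicate 3 was within its DMSO range, and the part of these in the *Plagl1* value was not tested. *Phactr2*, a phosphatase and actin regulator gene that ends 76.0 kb from *Plagl1*, also fell, from 2182, 2334 and 2382 to 1722, 1692 and 2049 (log2 fold change −0.34 ± 0.08, adjusted p = 0.047). The smallest distance between its groups was again at αKG replicate 3, and its adjusted p was 0.144 to 0.269 in the fits that left out another library and 0.00142 without αKG replicate 3. Of 15 alternatives, *Phactr2* passed in 4.

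*Dlk1* (ENSMUSG00000040856, chr12:109452823-109463336, plus strand), a transmembrane protein of the Notch ligand family, was close to the lower limit of the table, at 4, 7 and 6 in DMSO and 11, 2 and 5 in αKG. At 2 to 10 estimated reads per library, a change in *Dlk1* was not detectable, and the log2 interval ran from −1.33 to 1.08 (limma adjusted p = 0.898). Of the maternally expressed noncoding RNAs of the same domain, *Meg3* and *Rian* had enough reads to compare, while *Mirg* was low in DMSO and in αKG replicate 3. *Meg3*, 77.7 kb from *Dlk1*, was at 168, 180 and 179 in DMSO and at 787, 644 and 173 in αKG. *Rian* was at 242, 231 and 227 in DMSO and 999, 896 and 199 in αKG, and *Mirg* was at 9, 16 and 8 and then at 51, 46 and 10. In all 3 RNAs αKG replicates 1 and 2 were well above the DMSO range and αKG replicate 3 was inside or below it. The log2 fold changes of 1.33 ± 0.45, 1.27 ± 0.49 and 1.38 ± 0.56 had adjusted p of 0.101, 0.133 and 0.15, and without αKG replicate 3 they were 2.01, 2.02 and 2.10 (adjusted p = 0.000208, 0.000106 and 0.00451). Leaving out that library, 37.2% of all genes passed. *Begain* (1, 3 and 1, then 6, 10 and 2) and *Rtl1* (0, 2 and 4, then 5, 3 and 1) were near the lower limit, and *Dio3* was not listed. The fibroblast and epicardial marker sums separated the αKG libraries in the same way as *Meg3* and *Rian*, and their part in these values was not tested.

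**Figure D3:**
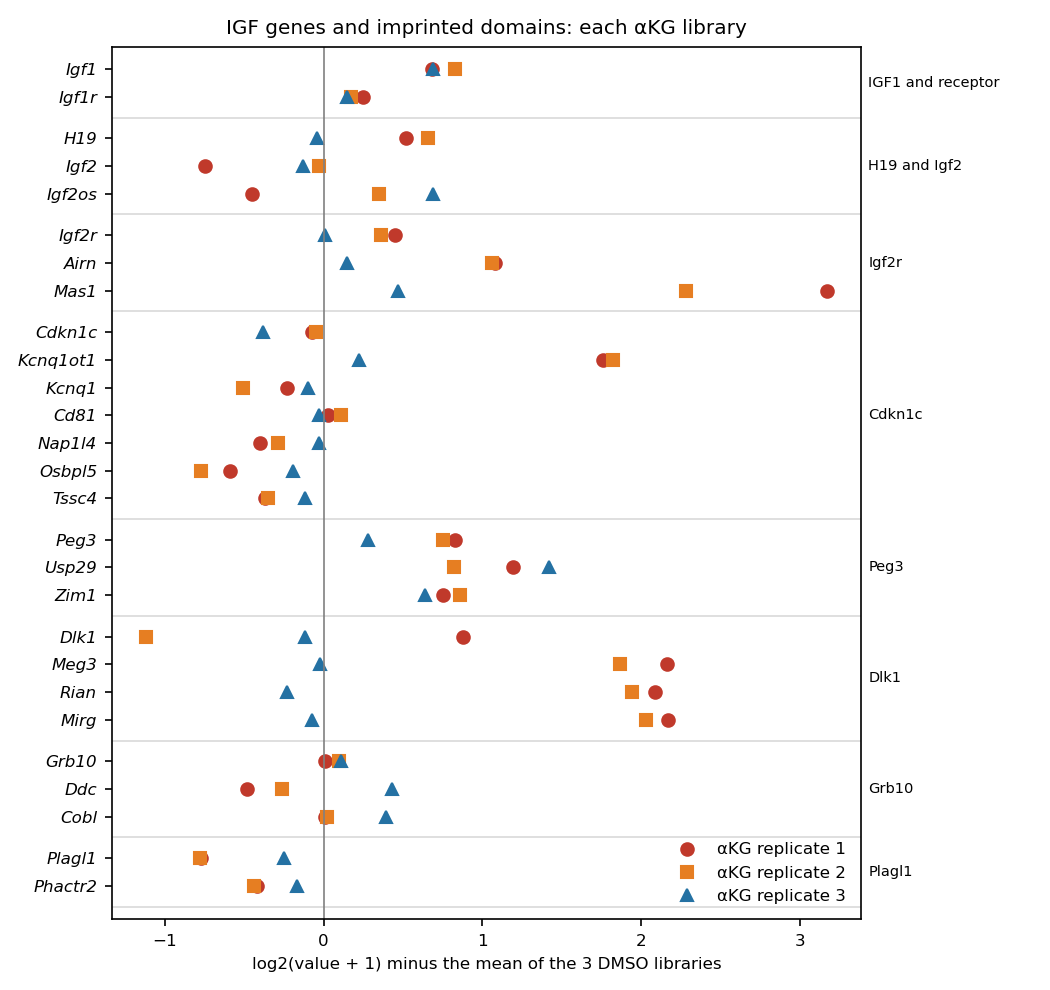
Difference of each αKG library from the mean of the 3 DMSO libraries, in log2(value + 1), for the same genes and domains. The 3 αKG libraries lie close together for *Igf1* (0.68, 0.83 and 0.69) and *Zim1* (0.75, 0.86 and 0.64), whereas for *Meg3*, *Rian*, *Mirg*, *Airn* and *Kcnq1ot1* replicate 3 lies between −0.23 and 0.22 and replicates 1 and 2 between 1.06 and 2.17.

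Levels were compared between genes per kilobase of exon, in the DMSO libraries. *Igf2r* was highest at 288 ± 4.39 normalized read counts per kb (SD, n = 3), followed by *Grb10* at 216 ± 5.73, *Plagl1* at 186 ± 3.99, *H19* at 103 ± 9.05, *Igf1r* at 83.3 ± 1.02 and *Peg3* at 69.2 ± 7.11. *Cdkn1c* at 38.6 ± 1.5, *Igf1* at 23.9 ± 1.23 and *Dlk1* at 1.00 ± 0.27 were lower, and *Igf2*, at 8.10 ± 1.02, has the limit given above. No neighbours in this order overlapped in DMSO. Per length, *Igf1r* and *Igf2r* were thus above *Igf1* in every DMSO library. In αKG the ranges of *H19* (99.6 to 162), *Plagl1* (108 to 156), *Peg3* (83.6 to 122) and *Igf1r* (92.3 to 99.0) overlapped from neighbour to neighbour. *Igf1* was at 39.8 ± 2.28 and *Cdkn1c* at 34.5 ± 4.40 in αKG, but with 30.7% of the *Cdkn1c* exon bases covered by a gene on the other strand, reads there may not have been counted, and their order was not settled.

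The binding proteins and proteases that set how much IGF reaches its receptor were read from the same fit. None of the 11 listed genes in the table passed the test, beside 3.78% of all genes. An unadjusted p under 0.05 was found for 6 of the 11 and for 5648 of all 20066 genes. The median log2 fold change of the 11 was 0.61, beside 0.04 for all genes. Per αKG replicate the median difference from DMSO was 0.97, 0.88 and 0.00. In the same order it was 0.88, 0.83 and −0.02 for the fibroblast markers and 2.16, 1.95 and −0.64 for the epicardial markers. For the endothelial markers it was −0.81, −1.03 and −0.58. The part of these cell types in the values of the 11 genes was not tested. The 3 with the highest means were *Htra1*, a secreted serine protease, at 565 to 632 in DMSO and 598 to 643 in αKG, *Igfbp4*, at 362, 361 and 334 and then at 689, 648 and 352, and *Igfbp7*, at 157 to 169 and then at 158 to 203. On the log2 scale *Igfbp4* differed by 0.61 ± 0.21 (limma adjusted p = 0.108), and 0.92 without αKG replicate 3 (adjusted p = 0.000455). *Pappa*, the protease that cleaves IGFBP4 and so releases IGF, is named after its values were seen. It was at 42, 51 and 48 in DMSO and at 177, 169 and 63 in αKG, with no overlap between groups, a log2 difference of 1.38 ± 0.34 (95% CI 0.61 to 2.15) and an adjusted p of 0.0547, or 1.86 with an adjusted p of 0.000455 without αKG replicate 3. In the fit without that library 37.2% of all genes passed. *Igfbp1* and *Igfals*, which the liver makes, were not listed.

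Downstream of the receptors, 2 of 35 genes in the table passed, beside 3.78% of all genes. An unadjusted p under 0.05 was found for 17 of the 35, as for 5648 of all 20066 genes. *Pik3cb*, a catalytic subunit of PI3K, rose from 189, 181 and 166 to 260, 266 and 226 (log2 fold change 0.48 ± 0.11, limma adjusted p = 0.0445). *Grb14*, an inhibitory adaptor of the insulin receptor and a relative of *Grb10*, fell from 1018, 1050 and 1118 to 701, 741 and 895 (−0.45 ± 0.09, adjusted p = 0.0379). In each the αKG replicate 3 value was nearest to the DMSO libraries, and the adjusted p was 0.137 to 0.255 for *Pik3cb* and 0.132 to 0.259 for *Grb14* when any other library was left out. With DMSO replicates 2 and 3 averaged it was 0.204 and 0.192, and of 15 alternatives *Pik3cb* passed in 5 and *Grb14* in 6. The median over the 35 was −0.12, and groups did not overlap for 2 genes that were higher and 14 that were lower, beside 13.7% and 14.6% of all genes. The genes with the highest means did not pass: *Insr*, the insulin receptor, had 1659, 1851 and 1829 in DMSO and 2110, 2148 and 1875 in αKG (0.20 ± 0.07, adjusted p = 0.114). *Mtor* had 1376, 1352 and 1336 and then 1158, 1062 and 1292 (−0.21 ± 0.08, adjusted p = 0.111), and *Gsk3b* had 1163 to 1252 and then 1059 to 1207 (−0.07 ± 0.07, adjusted p = 0.516). Without αKG replicate 3, when 37.2% of all genes passed, *Insr* (0.26, adjusted p = 0.012) and *Mtor* (−0.29, adjusted p = 0.00549) passed as well. The genes of the IGF2 mRNA-binding proteins, fetal RNA-binding proteins named for *Igf2* mRNA, did not pass, at 0.36 ± 0.14 for *Igf2bp1*, 0.17 ± 0.09 for *Igf2bp2* and 0.19 ± 0.12 for *Igf2bp3* (adjusted p = 0.137, 0.261 and 0.301), with 1 of the 3 below 0.05 before adjustment. Leaving out αKG replicate 3 put them at 0.52, 0.24 and 0.33, with adjusted p of 0.00441, 0.0207 and 0.00554. Passing was common in that fit, at 37.2% of all genes.

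Among 42 further genes listed as imprinted, 4 passed, 3 higher and 1 lower, beside 3.78% of all genes (2.83% higher and 0.952% lower), and the median log2 fold change was −0.03. Whether each is imprinted in these cells was not tested, and *Dcn* is also among the fibroblast markers. *Slc38a4*, a neutral amino acid transporter gene, had the smallest adjusted p of them, at 193, 219 and 169 in DMSO and 501, 585 and 425 in αKG (2.60-fold, log2 fold change 1.37 ± 0.14, 95% CI 1.07 to 1.67, limma adjusted p = 0.00295). Its log2 change was 1.26 to 1.49 in leave-one-out fits, where the adjusted p was 0.0738 and 0.0869 for DMSO replicates 2 and 3, 0.203 and 0.224 for αKG replicates 1 and 2 and 0.000796 for αKG replicate 3, and with DMSO replicates 2 and 3 averaged it was 0.0384. *Zdbf2*, a paternally expressed zinc finger gene, was at 86, 74 and 75 in DMSO and 161, 157 and 128 in αKG (0.91 ± 0.14, adjusted p = 0.0193). *Htr2a*, a serotonin receptor gene, was at 13, 20 and 11 and then at 40, 38 and 39 (1.39 ± 0.28, adjusted p = 0.0363). Its αKG libraries were nearly equal, but the values are low and carry a large counting error. *Mest*, a paternally expressed growth gene, fell from 155, 141 and 145 to 61, 54 and 108 (−1.04 ± 0.23, adjusted p = 0.0445), with αKG replicate 3 nearest to DMSO. The adjusted p of these 3 genes was between 0.0556 and 0.269 when 1 of the other libraries was left out and 0.00136, 0.0118 and 0.000657 without αKG replicate 3. With DMSO replicates 2 and 3 averaged it was 0.155, 0.15 and 0.202, and of 15 alternatives *Zdbf2* passed in 7, *Htr2a* in 6 and *Mest* in 5. The genes with the highest means, *Ube3a* (2010 to 2102, then 1852 to 2090), *Ago2* (1492 to 1520, then 1413 to 1537) and *Gnas* (1250 to 1278, then 1267 to 1343), had log2 fold changes of −0.06, −0.04 and 0.03, with adjusted p of 0.559, 0.659 and 0.741.

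**Figure D4:**
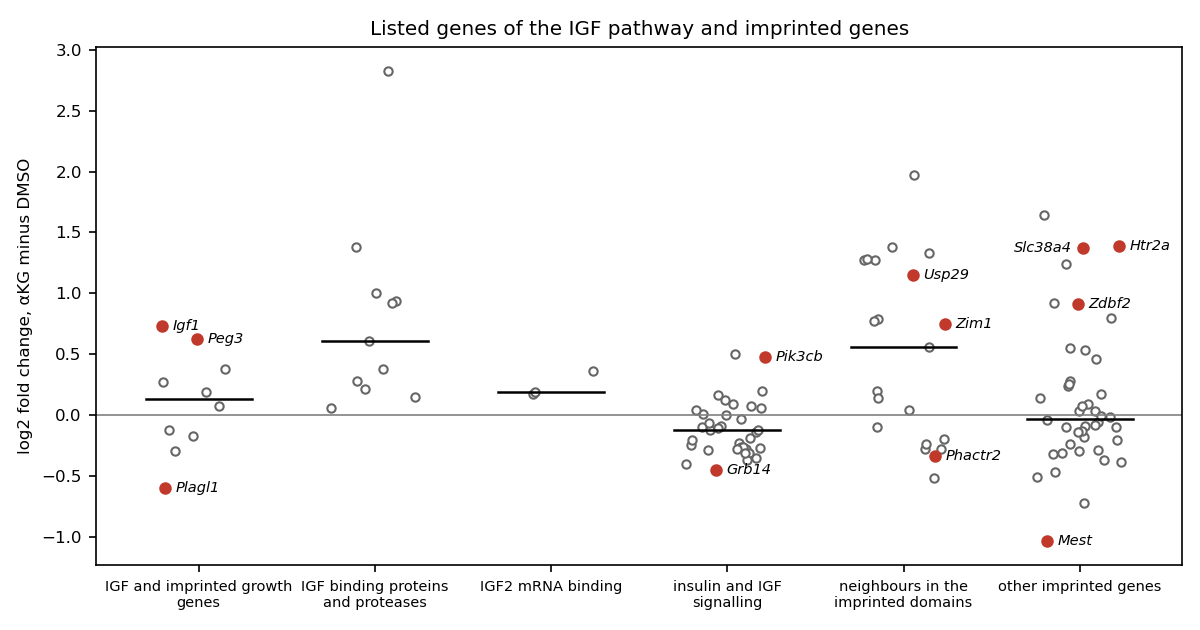
Log2 fold change (αKG minus DMSO, vertical axis) of every listed gene in the table, by list, with a line at the median of the list. Named red points passed an adjusted p of 0.05. The 10 IGF and imprinted growth genes have a median of 0.13, the binding proteins one of 0.61 with no gene called, signalling genes one of −0.12, domain neighbours one of 0.56 and other imprinted genes one of −0.03.

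For likeness of pattern, all genes with a mean of at least 100 (8295) were correlated with *Igf1* and *Igf2* over the 6 libraries, as a description. The 6 points share treatment and library. The genes named were picked by r among 8295, so a shared highest or lowest library follows from the choice. Those closest to *Igf1* were *Sqle* (Pearson r = 0.996), a cholesterol synthesis enzyme gene, *Chml* (0.994), *6430548M08Rik* (0.993), *Creb5* (0.992), a transcription factor gene, and *Cep295* (0.991), a centriole gene. *Sqle* was at 175, 156 and 157 in DMSO and 247, 261 and 245 in αKG, and *Creb5* at 117, 120 and 104 and then at 463, 530 and 381. Those closest to *Igf2* were *Rars* (0.989), *Cnep1r1* (0.982), *Nfatc2* (0.979), *Trappc3* (0.972) and *Zzz3* (0.967), all with their lowest value in αKG replicate 1, as in *Igf2*. *Rars*, an arginyl-tRNA synthetase gene, was at 345 in that library and at 403 to 429 in the others.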

How the data were processed

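The 10 genes and the lists were chosen with earlier results of these data known. Per the study's methods and the submitters' processing notes, the authors used Trimmomatic 0.39 for trimming, STAR 2.7.10a for alignment to mm10 (GRCm38.p5), featureCounts 2.0.3 for counts per gene over exons, without reads that overlap more than 1 gene or map to more than 1 place, and DESeq2 1.30.1. Values were deposited after division by each library's size factor and rounding, which makes them a score and not raw counts. The value of 1 read, estimated from the steps between low values, lay between 0.9259 and 1.1188, and in simulated data 59 of 60 factors were recovered within 0.1% (largest error 0.74%). Estimated reads cover counting error only.

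All 6 libraries entered limma 3.58.1 (R 4.3.3) on log2(value + 1), which understates changes of low genes, with a variance trend, treatment as the only term and Benjamini-Hochberg adjustment over 20066 genes, two-sided. Every listed gene reaches a value of 2 or more somewhere, and no further filter was set. In simulated data on 18973 genes with 200 changed, all 200 were called in the right direction, and 8 that had not been changed were called as well. The dispersion was 1e-04 in both groups, the lowest value the simulation allowed. In the data, αKG replicate 3 differed from αKG replicates 1 and 2 at a chi-square per gene of 10.8 and 9.88. The simulation therefore does not show how many changed genes are found, or wrongly called, in these libraries.

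Named are the 10 genes, every listed domain neighbour, from other lists the genes called and the 3 with the highest mean, and the 5 genes most correlated with *Igf1* and with *Igf2*. *Pappa* and the cardiomyocyte marker sum without *Ttn* were added after the values were seen. Positions are those of the table, and 99.0% of its genes have the same position in GENCODE M21, which gave exon lengths and overlaps. Promoters are RefSeq GRCm38.p6. Alternatives were the pseudocount, a filter, the trend, scaling, a replicate block, limma-voom on estimated reads and each library left out. Averaging DMSO replicates 2 and 3 was added after the data were seen.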

Additional observations from a re-analysis of the deposited data

How the results depend on the processing

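The αKG group holds a library that stands apart, and the number of calls follows it. Of the 10 genes, 3 were called, and leaving out 1 library gave 0 to 6 (all genes: 0 to 7466 against 759, and genes of the other lists: 0 to 69 against 9). The counts for the 10 genes, other listed genes and all genes were 1, 4 and 346 with a pseudocount of 0.1, 0, 0 and 27 without a variance trend, 2, 5 and 327 with limma-voom, and 0, 1 and 19 with DMSO replicates 2 and 3 averaged. Where limma called 0 genes of all, 3324 (without αKG replicate 1) and 3244 (without αKG replicate 2) had an unadjusted p under 0.05. A filter at a mean of 10, a pseudocount of 10, a common total and quantile normalization called 3 of the 10 each. Of all calls 74.8% were higher in αKG, against 51.8% without αKG replicate 3, 99.3% without DMSO replicate 1, 66.3% with a common total and 69.3% with quantile normalization. The cause of these differences was not tested.

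With a replicate block, 0 of the 10 genes, 1 listed gene and 46 of all genes were called, and *Igf1* had an adjusted p of 0.0542. The labels share only a number: deviations of same-numbered libraries from their group means correlated at −0.0744, 0.136 and 0.00192 over 13409 genes.

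Over 744 values of 50 single genes under 15 alternatives, 108 lost a call, 22 gained one and 12 changed direction, none of them for a called gene. Leaving out 1 library gave log2 fold changes of −0.62 to 0.38 for *Dlk1*, −0.00 to 0.07 for *Cd81*, −0.37 to 0.09 for *Ddc*, −0.05 to 0.52 for *Igf2os*, −0.09 to 1.07 for *Rtl1* and −0.86 to 0.17 for *Slc22a3*. Quantile normalization gave −0.00 for *Gnas* and −0.22 for *Igf2os*, and averaging DMSO replicates 2 and 3 gave 0.01 for *Slc22a3*. Depth limits *Dlk1*, *Igf2* and *Cdkn1c*. It also limits the called genes *Usp29* (values of 15 to 46) and *Htr2a* (11 to 40).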
